A study of Mus musculus with 18 samples.

Results

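The genes described here are 36 that encode the enzymes, transporters and regulators through which liver cells break down, make, store and export glucose. They were chosen by symbol from the 24394 gene symbols used of the deposited count table. All 36 have a row in it, and 34 had enough counts to be tested. They fall into 6 branches: 12 genes of glycolysis and its regulators, 3 of the pyruvate dehydrogenase step, 8 of gluconeogenesis and glucose export, 7 of glycogen, 2 of fructose entry and 4 of the pentose phosphate pathway.

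RNA was measured in 18 mouse livers, 6 in each of 3 groups, by sequencing from the 3′ ends of polyadenylated transcripts. The control livers and the first tumour-bearing group came from wild-type (WT) mice. The second tumour-bearing group came from Alb-Cre+/+;Stat3f/f mice, in which Cre recombinase, driven by the albumin promoter in hepatocytes, deletes the floxed part of Stat3 (called Stat3-deleted below). Stat3 itself encodes the transcription factor that relays cytokines of the interleukin-6 family. The tumour line is PDA.69, a KPC derived Tcelllow PDAC line, grown from a mouse pancreatic ductal adenocarcinoma. Control livers carry that line in their labels as well, and the labels used here state no age, sex, feeding state, hour of collection, tumour site or time since implantation. No tumour-free Stat3-deleted livers were analysed here, so an effect of the deletion without a tumour cannot be told apart from its effect with one. No label says that the 6 livers of a group came from separate cages or days, so p-values measure the spread between these livers.

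The liver takes up glucose after a meal, stores it as glycogen, and between meals breaks glycogen down and makes new glucose from lactate, glycerol and amino acids. Glycolysis and gluconeogenesis share most of their enzymes, and each direction has its own enzymes at a few irreversible steps. Their genes respond to insulin, glucagon, glucocorticoids and the hour of day, and inflammation is known to change several of them in hepatocytes.

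Total counts per library were 5212265 to 7159148 in control, 6168658 to 8850200 in WT tumour-bearing and 7222882 to 9545442 in Stat3-deleted livers. Levels are given as CPM, counts scaled to a common library size by the TMM method, as the lowest, median and highest of the 6 livers of a group. Stat3 (chromosome 11, 100886806 to 100939594) measured 93.6, 110.0 and 147.6 CPM in control, 163.3, 214.5 and 264.4 CPM in WT tumour-bearing and 99.4, 116.2 and 132.5 CPM in Stat3-deleted livers. All 6 WT tumour-bearing livers lay above every liver of the other groups, with log2 fold changes of 0.93 over control (edgeR adjusted p = 0.000302) and −0.85 for Stat3-deleted against WT tumour-bearing (adjusted p = 0.00043). Tags from the 3′ end do not test whether the floxed part is gone, and cells other than hepatocytes keep the gene, so its level does not check the deletion. Hepatocyte markers made up 53360 to 82860 CPM in control, 57890 to 121900 in WT tumour-bearing and 91000 to 106300 in Stat3-deleted livers, against at most 0.482 CPM for skeletal muscle markers. Among the 8 hepatocyte markers tested, Ttr was higher in Stat3-deleted than in WT tumour-bearing livers (log2 fold change 0.68, edgeR adjusted p = 0.0154). Against control livers, Ttr was higher (0.66, adjusted p = 0.0271) and Apob lower (−1.25, adjusted p = 0.0124) in Stat3-deleted livers. No other hepatocyte marker had an adjusted p under 0.05. In whole liver, fewer cells of a type and less RNA per cell cannot be told apart.

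The stretches before the transcription starts of 3 genes are shown first because these genes passed a test between groups and carry the motif CACGTG there. This E-box is the core sequence bound by basic helix-loop-helix proteins such as Myc, Usf and the clock pair Clock and Bmal1. Each of the 3 genes has 2 RefSeq windows, from different starts; the one with the motif is shown, and the other holds neither motif named here. Ldha holds CACGTG at 145 and 48 bases before the start shown and the cAMP response element TGACGTCA at 12 bases before it. Pfkfb3 holds an E-box at 53 bases and Pcx at 248 bases before the start shown. Capitals mark these motifs, and the windows of 250 bases come from RefSeq on GRCm38.p6: Ldha on the plus strand (chr7:46845554-46845803), Pfkfb3 on the minus strand (chr2:11502091-11502340) and Pcx on the plus strand (chr19:4510222-4510471).
Ldha: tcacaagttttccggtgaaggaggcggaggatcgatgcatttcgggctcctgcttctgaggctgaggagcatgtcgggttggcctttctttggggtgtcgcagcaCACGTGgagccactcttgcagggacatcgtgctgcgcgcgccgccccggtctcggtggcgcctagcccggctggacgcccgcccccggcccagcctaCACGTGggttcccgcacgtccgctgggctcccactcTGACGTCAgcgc
Pfkfb3: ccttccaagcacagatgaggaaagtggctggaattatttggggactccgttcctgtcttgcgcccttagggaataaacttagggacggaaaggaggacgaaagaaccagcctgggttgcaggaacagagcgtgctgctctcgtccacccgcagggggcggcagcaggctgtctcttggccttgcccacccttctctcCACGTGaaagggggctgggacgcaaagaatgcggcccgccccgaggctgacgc
Pcx: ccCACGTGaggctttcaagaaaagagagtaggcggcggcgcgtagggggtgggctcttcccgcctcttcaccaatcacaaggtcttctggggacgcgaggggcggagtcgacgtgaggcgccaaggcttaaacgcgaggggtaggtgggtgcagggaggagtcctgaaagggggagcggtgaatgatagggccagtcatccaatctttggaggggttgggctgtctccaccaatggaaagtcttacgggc

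Windows were available for 34 of the 36 genes (49 windows, since some genes have several starts), and both strands were searched. CACGTG was found in 6 of the 49 windows, those of Khk, Ldha, Pcx, Pdk2, Pfkfb3 and Ppp1r3c, against 6.02% of all 32851 windows of the same length. TGACGTCA was found in 2 of the 49, those of Ldha and Mdh2, against 1.55% of all windows. The palindrome TTCNNNGAA, the core of Stat3-type sites, stood in none of the 49 windows and in 7.02% of all windows. A match is a description of letters, and no match says only that these letters are not in this window.

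In WT tumour-bearing against control livers, 2 of the 34 tested genes rose (Ldha and G6pdx) and 1 fell (Slc2a2). Over all 11218 genes tested, 1.76% rose and 0.49% fell in that comparison at an edgeR quasi-likelihood adjusted p under 0.05. In Stat3-deleted against WT tumour-bearing livers, 4 of 34 rose (Pfkfb3, Ugp2, Ppp1r3b and Ppp1r3g) and 2 fell (Ldha and Pcx), with 2.89% of all genes higher and 3.23% lower. In Stat3-deleted tumour-bearing against control livers edgeR called 0 of 34 in either direction, with 2.19% of all genes higher and 2.66% lower. There, 8 of the 34 were higher and 1 was lower at an unadjusted p under 0.05, against 1049 and 1285 of all 11218 genes. DESeq2 called 2 of the 34 higher there (Ppp1r3c and G6pdx) and 0 lower, and 860 of 11209 genes over both directions. The 3 comparisons are called the first, the second and the third comparison below, in this order. They share groups, so a gene that is high in WT tumour-bearing livers enters the first and the second with opposite signs.

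By branch, the glycogen genes had the largest medians of the log2 fold change in either direction, −0.49 in the first comparison, 0.43 in the second and 0.41 in the third, over 7 genes. The 14 tested further glycogen genes, followed beside them, had medians of 0.08, 0.01 and 0.17. The medians of all genes tested were 0.00, −0.03 and −0.01. The 10 tested glycolysis genes had medians of −0.13, 0.13 and 0.07, the 3 pyruvate dehydrogenase genes −0.14, 0.07 and 0.00, and the 8 gluconeogenesis genes 0.02, 0.22 and 0.06. The 2 fructose genes stood at −0.06, 0.08 and 0.02, and the 4 pentose phosphate genes at 0.28, 0.00 and 0.28. Over the 34 genes, 21 lay below 0 in the first comparison, 26 above 0 in the second and 22 above 0 in the third. When library totals replaced TMM scaling these became 28, 28 and 15, and the medians of all genes moved by −0.19, 0.07 and −0.12.

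**Figure D1:**
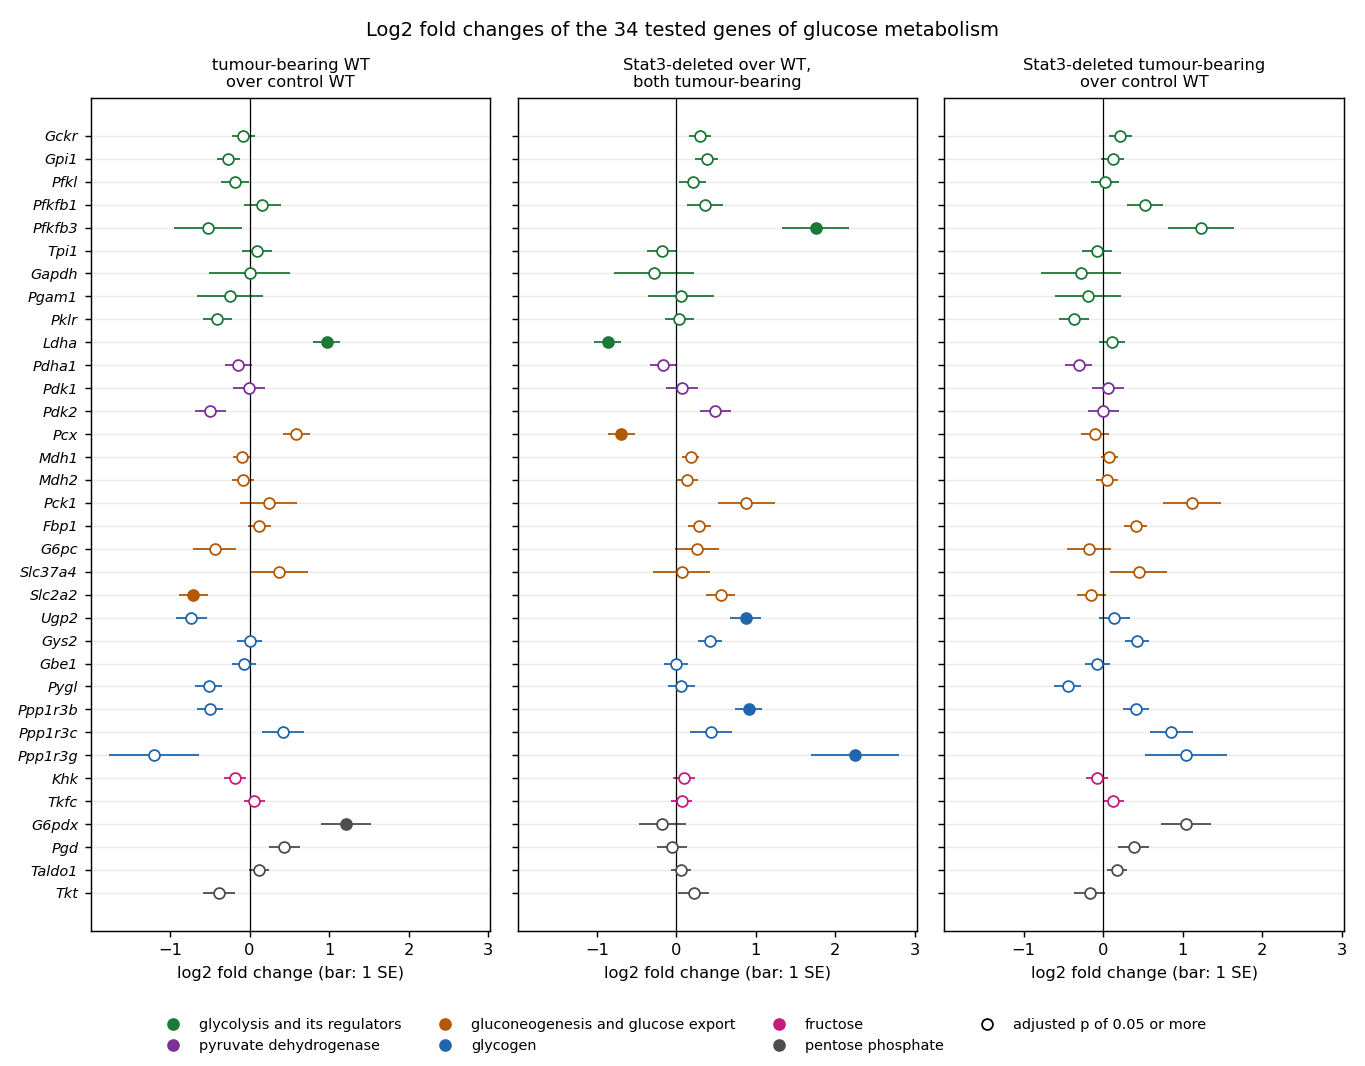
Log2 fold changes (horizontal axis, points with bars of 1 SE) of the 34 tested genes, 1 row per gene in the colour of its branch, in the 3 comparisons from left to right. Filled points have an edgeR adjusted p under 0.05: 3 genes in the first panel, 6 in the second and 0 in the third.

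Ldha (chromosome 7, 46842274 to 46855627) encodes the A subunit of lactate dehydrogenase, which interconverts pyruvate and lactate. It measured 383.5, 435.5 and 593.6 CPM in control, 656.6, 808.9 and 1366 CPM in WT tumour-bearing, and 365.6, 497.0 and 616.6 CPM in Stat3-deleted livers. Every WT tumour-bearing liver lay above every liver of both other groups. Ldha was 1.96-fold higher in WT tumour-bearing than in control livers (log2 fold change 0.97, SE 0.17, adjusted p = 0.00181, higher in 6 of 6). It was 1.82-fold lower in Stat3-deleted than in WT tumour-bearing livers (−0.86, SE 0.17, adjusted p = 0.00277, lower in 6 of 6). Stat3-deleted and control livers overlapped, where the log2 fold change was 0.11 (SE 0.17, adjusted p = 0.769). Both calls held without any 1 of the 18 libraries. The liver at 1366 CPM, replicate 4, was the farthest from its group, and without it the first log2 fold change was 0.80 (adjusted p = 0.00526) and the second −0.69 (adjusted p = 0.00886).

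The numbers in the labels of the WT livers form 2 runs, 25458 to 25463 and 25489 to 25504, with 3 livers of each WT group in each run. Within the runs Ldha had log2 fold changes of 0.80 (adjusted p = 0.107) and 1.10 (adjusted p = 0.161), at 3 livers against 3. The Stat3-deleted livers carry the numbers 25444 to 25451, and whatever goes with that numbering cannot be told apart from the deletion.

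The summed markers of neutrophils and of biliary cells moved in the same directions as Ldha. Among the members, Csf3r and Epcam did not follow. In control, WT tumour-bearing and Stat3-deleted livers their means were 0.262, 0.264 and 0.412 CPM (Csf3r) and 1.12, 0.918 and 0.920 CPM (Epcam). Summed over the 6 markers in the table, neutrophil markers made up 21.0 to 50.5 CPM in control, 67.8 to 337.4 in WT tumour-bearing and 35.5 to 102.8 in Stat3-deleted livers. Of the 3 tested (S100a8, S100a9 and Retnlg) all rose in the first comparison and all fell in the second, while the neutrophil genes Mmp8 and Csf3r had a mean below 1 CPM. Biliary markers summed to 30.6 to 55.3, 43.5 to 147.5 and 28.4 to 43.7 CPM, and of 4 tested 1 rose in the first comparison (Sox9, 1.31, adjusted p = 0.00276) and 2 fell in the second (Sox9, −1.35, adjusted p = 0.000883, and Spp1, −2.06, adjusted p = 0.00139), with Epcam below 1 CPM. Kupffer cell markers summed to 220.6 to 628.0, 438.9 to 1194 and 416.2 to 1260 CPM, and of 6 tested 2 rose, 0 changed and 2 rose in the 3 comparisons. Over all genes tested, 2.25%, 6.12% and 4.85% passed in the 3 comparisons. The part of these cells in the Ldha values was not tested.

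Ldha lies beside the serum amyloid A genes, which encode acute-phase proteins made by hepatocytes. Counted from the Ldha start, Saa2 starts at −90.4 kb, Saa1 at −101.8 kb, Saa4 at −114.3 kb and Saa3 at −130.3 kb. Of the 12 tested genes within 250 kb, counting Ldha, the 5 that passed the test in the first comparison were Saa1, Saa2, Saa3, Saa4 and Ldha, and the same 5 passed in the second. Over all genes tested, 2.25% and 6.12% passed in these comparisons. The log2 fold changes of Saa4 were 1.20 (adjusted p = 0.000205) and −0.93 (adjusted p = 0.0017), close in size to those of Ldha, and those of Saa1 were 6.21 and −8.73. The lncRNA Gm39011 overlaps Ldha and was not among the genes compared. The nearest gene with a row in the count table, Ldhc at 19 kb, was too low to be tested. The nearest tested genes did not pass: Gtf2h1, at −46.2 kb, had −0.38 and 0.32 (adjusted p = 0.567 and 0.606). Tsg101, at 46.7 kb, had 0.09 and 0.06 (adjusted p = 0.846 and 0.892). Hps5, between Gtf2h1 and Saa2, had 0.54 and −0.73 (adjusted p = 0.273 and 0.0816). These genes were looked at after the Ldha values were known, so the count of 5 among 12 is a description and no test.

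**Figure D2:**
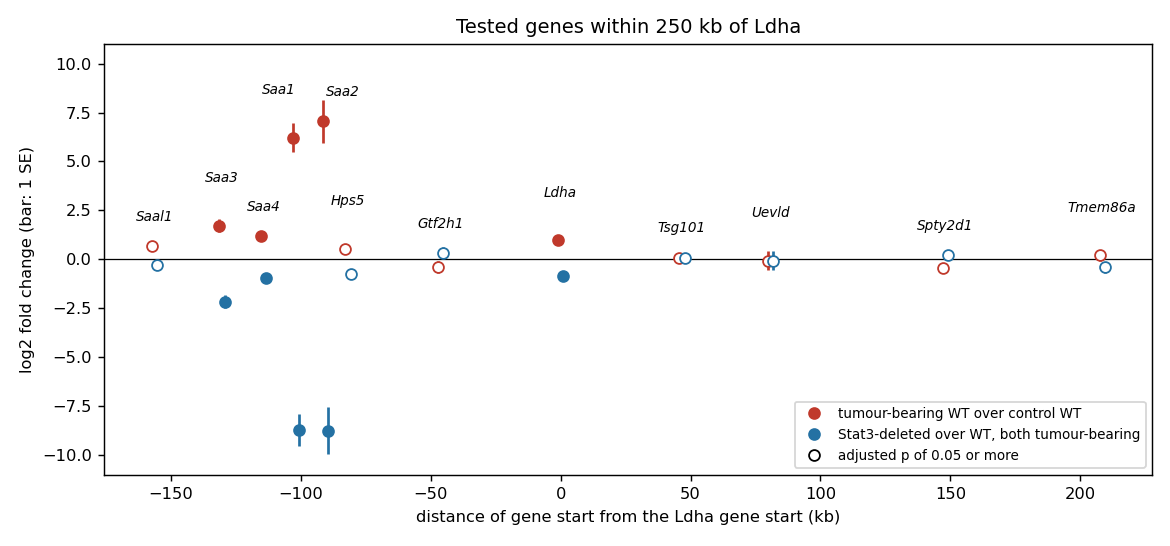
Log2 fold change (vertical axis, bars of 1 SE) of each tested gene within 250 kb of Ldha against the distance of its start from the Ldha start in kb. Filled points, with an adjusted p under 0.05, are Ldha at 0 kb and Saa1 to Saa4 between −130.3 and −90.4 kb, all above 0 for WT tumour-bearing over control and below 0 for Stat3-deleted over WT.

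Pfkfb3 (chromosome 2, 11471430 to 11554071) encodes a bifunctional enzyme that makes fructose 2,6-bisphosphate, an activator of phosphofructokinase. Its levels were low and spread widely in WT livers, at 1.73, 8.43 and 23.4 CPM in control and 2.95, 7.85 and 12.8 CPM in WT tumour-bearing, against 16.04, 27.5 and 33.5 CPM in Stat3-deleted livers. All 6 Stat3-deleted livers lay above all WT tumour-bearing livers, while 2 control livers, at 21.5 and 23.4 CPM, lay within the Stat3-deleted range. Pfkfb3 was 3.37-fold higher in Stat3-deleted than in WT tumour-bearing livers (log2 fold change 1.75, SE 0.42, adjusted p = 0.0135). The other comparisons gave −0.52 for WT tumour-bearing over control (adjusted p = 0.583) and 1.23 for Stat3-deleted over control (adjusted p = 0.0852).

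No other glycolysis gene passed. Gckr, a regulatory protein of glycolysis, Gpi1, glucose-6-phosphate isomerase, and Pfkl, the liver phosphofructokinase, had log2 fold changes of −0.27 to −0.08 in the first comparison and of 0.20 to 0.38 in the second (smallest adjusted p = 0.132, Gpi1). Pfkfb1, the liver form of the bifunctional enzyme, stood at 0.16 and 0.36 (adjusted p = 0.78 and 0.401). Pklr, the liver pyruvate kinase, stood at −0.41 (adjusted p = 0.275) and 0.04 (adjusted p = 0.938), and Tpi1, triosephosphate isomerase, at 0.10 and −0.18 (adjusted p = 0.848 and 0.646).

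Several enzymes of the later steps of glycolysis could not be read well from this table. Gapdh, glyceraldehyde-3-phosphate dehydrogenase, had only 2.63 to 26.3 CPM over all livers, and 124 other annotated genes hold a copy of at least 75 bases of its last 300 at 95% identity or more, so its level is uncertain. Pgk1 (0.128 to 2.07 CPM) and Eno1 (0 to 0.151 CPM) were too low to be tested, and Pgam1 had 0.619 to 4.36 CPM. Eno1 shares its 3′ end with Eno1b, which measured 16.8, 18.6 and 20.6 CPM in control, 5.75, 9.60 and 20.7 CPM in WT tumour-bearing and 9.65, 11.3 and 17.7 CPM in Stat3-deleted livers. Its log2 fold change in WT tumour-bearing over control was −0.67 (adjusted p = 0.15). Pklr shares its end with Hcn3 and was not separated from it.

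**Figure D3:**
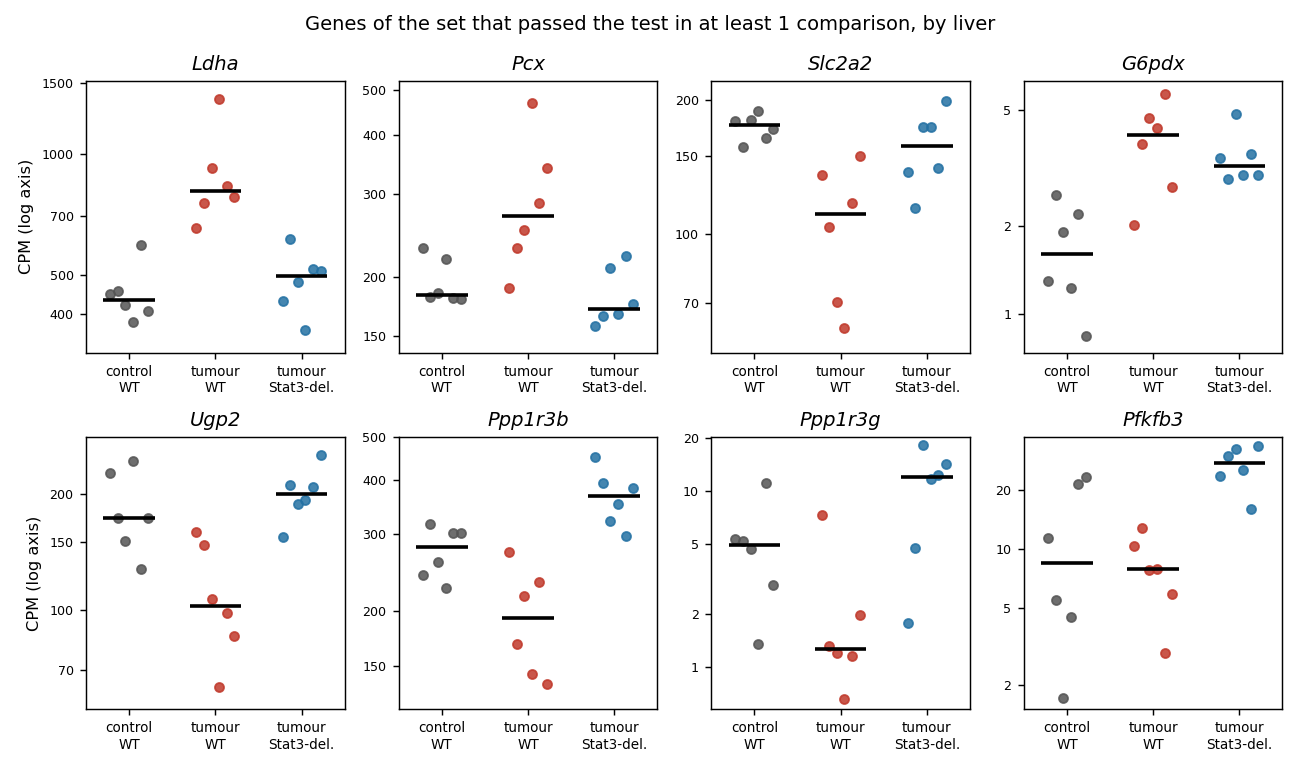
CPM on log axes, each with its own scale, of the 8 genes that passed the test in at least 1 comparison: each point is a liver (6 per group, in order of replicate number), and each line is the group median. Ldha is highest in all 6 WT tumour-bearing livers, and Pfkfb3 and Ppp1r3b do not overlap between the 2 tumour-bearing groups.

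At the pyruvate dehydrogenase step, which passes pyruvate into the mitochondrial citric acid cycle, none of the 3 genes passed. Pdk2, a kinase that switches the enzyme off, came closest. It measured 111.4, 127.6 and 144.9 CPM in control, 62.8, 77.6 and 165.9 CPM in WT tumour-bearing, and 97.3, 134.1 and 159.7 CPM in Stat3-deleted livers. Of the WT tumour-bearing livers 5 lay below every control liver and replicate 5 above all of them. The log2 fold changes were −0.49 (SE 0.20, adjusted p = 0.209), 0.49 (SE 0.20, adjusted p = 0.155) and 0.00 (adjusted p = 0.999). Pdha1, the catalytic subunit, which shares its end with Map3k15, stood at −0.14, −0.17 and −0.31, and the kinase Pdk1 at −0.01, 0.07 and 0.06.

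Among the genes of gluconeogenesis and glucose export, the first enzyme and the exporter moved. Pcx (chromosome 19, 4510472 to 4621752), pyruvate carboxylase, which turns pyruvate into oxaloacetate, measured 180.0, 183.3 and 230.4 CPM in control, 189.3, 269.7 and 469.3 CPM in WT tumour-bearing and 157.2, 171.2 and 221.7 CPM in Stat3-deleted livers. It was 1.62-fold lower in Stat3-deleted than in WT tumour-bearing livers (log2 fold change −0.69, SE 0.17, adjusted p = 0.0158, lower in 6 of 6), with ranges that overlapped. Without WT tumour-bearing replicate 4, the highest liver, this became −0.51 with an adjusted p of 0.0526. For WT tumour-bearing over control Pcx stood at 0.59 (SE 0.17, adjusted p = 0.0742), which DESeq2 called (adjusted p = 0.0356), and for Stat3-deleted over control at −0.10 (adjusted p = 0.793).

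Slc2a2 (chromosome 3, 28697903 to 28728361) encodes GLUT2, the glucose transporter of the hepatocyte surface. Control livers measured 156.8, 176.0 and 189.2 CPM, WT tumour-bearing livers 61.7, 110.7 and 150.0 CPM, and Stat3-deleted livers 114.5, 157.4 and 198.6 CPM. All WT tumour-bearing livers lay below all control livers, and Stat3-deleted livers overlapped with both. Slc2a2 was 1.63-fold lower in WT tumour-bearing than in control livers (log2 fold change −0.71, SE 0.18, adjusted p = 0.0417). The call was lost when any 1 of 11 libraries was left out (control replicates 1, 3, 4, 5 and 6, WT tumour-bearing replicates 2, 3 and 4, and Stat3-deleted replicates 1, 3 and 5; adjusted p up to 0.119). It was also lost within the 2 label-number runs, at −0.74 (adjusted p = 0.311) and −0.68 (adjusted p = 0.354). Stat3-deleted over WT tumour-bearing gave 0.56 (SE 0.18, adjusted p = 0.0776).

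The other 6 genes of the branch did not pass in any comparison. Pck1, phosphoenolpyruvate carboxykinase, measured 612.3, 945.3 and 1272 CPM in control, 346.6, 963.0 and 2445 CPM in WT tumour-bearing and 1114, 1600 and 3950 CPM in Stat3-deleted livers. All 6 Stat3-deleted livers exceeded the control mean, with a log2 difference of 1.12 (SE 0.36, adjusted p = 0.0743), and the WT tumour-bearing livers spread over the ranges of both other groups. Fbp1, fructose-1,6-bisphosphatase, stood at 0.12, 0.29 and 0.41 in the 3 comparisons (smallest adjusted p = 0.104). Mdh1 and Mdh2, the cytosolic and mitochondrial malate dehydrogenases, kept within −0.10 to 0.18.

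G6pc, the catalytic subunit of glucose-6-phosphatase that releases free glucose, measured 471.1, 568.6 and 831.2 CPM in control, 253.8, 442.9 and 712.3 CPM in WT tumour-bearing and 195.9, 513.0 and 874.4 CPM in Stat3-deleted livers. The ranges of all groups overlapped, with log2 fold changes of −0.44, 0.26 and −0.18 (adjusted p = 0.453, 0.653 and 0.77). G6pc lies 0.48 Mb and Pdk2 5.86 Mb from Stat3 on chromosome 11. At either gene, a strain variant carried along with the floxed allele cannot be told apart from the deletion. Mdh1 and Ugp2 lie on the same chromosome, 79.33 and 79.57 Mb from Stat3. Slc37a4, the transporter that feeds glucose-6-phosphate to glucose-6-phosphatase, measured 39.3, 50.04 and 268.6 CPM in WT tumour-bearing livers, of which 5 were at or below 67.4 CPM. In Stat3-deleted livers it kept within 79.8 to 94.8 CPM, inside the control range of 45.97 to 105.9 CPM. The log2 fold changes in the 3 comparisons were 0.376, 0.068 and 0.445 (adjusted p = 0.653, 0.941 and 0.52).

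In the glycogen branch, 3 of 7 genes rose in Stat3-deleted against WT tumour-bearing livers and none fell. Over all genes tested, 2.89% rose and 3.23% fell in that comparison, and none of the 14 tested further glycogen genes passed. Ugp2 (chromosome 11, 21321126 to 21371267) makes UDP-glucose, the building block of glycogen. It measured 127.5, 173.3 and 242.8 CPM in control, 63.0, 102.3 and 159.3 CPM in WT tumour-bearing and 154.9, 200.4 and 252.5 CPM in Stat3-deleted livers. The 2 tumour-bearing groups overlapped only in the lowest Stat3-deleted and the highest WT liver, and the log2 fold change was 0.87 (1.83-fold, SE 0.20, adjusted p = 0.00894, higher in 6 of 6). For WT tumour-bearing over control it was −0.73 (SE 0.20, adjusted p = 0.0535), which passed in DESeq2 (adjusted p = 0.0139).

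Ppp1r3b and Ppp1r3g encode subunits that target protein phosphatase 1 to glycogen, where it activates glycogen synthase. Ppp1r3b (chromosome 8, 35375694 to 35388139), the main liver form, measured 226.0, 280.7 and 316.4 CPM in control, 135.9, 192.4 and 273.5 CPM in WT tumour-bearing and 297.5, 367.6 and 450.1 CPM in Stat3-deleted livers. All Stat3-deleted livers lay above all WT tumour-bearing livers, and the ranges of Stat3-deleted and control livers overlapped. The rise over WT tumour-bearing was 1.88-fold (log2 fold change 0.91, SE 0.16, adjusted p = 0.00129). Ppp1r3b stood at −0.49 in WT tumour-bearing over control (adjusted p = 0.123) and at 0.41 in Stat3-deleted over control (adjusted p = 0.143).

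Ppp1r3g (chromosome 13, 35958824 to 35970388), known to be induced by fasting, was low and variable. Control livers measured 1.35, 4.94 and 11.1 CPM, WT tumour-bearing livers 0.656, 1.26 and 7.27 CPM, and Stat3-deleted livers 1.77, 12.01 and 18.2 CPM. The ranges of all groups overlapped, and WT tumour-bearing replicate 1 stood at 7.27 CPM while the other 5 livers of its group were at or below 1.97 CPM. In Stat3-deleted over WT tumour-bearing livers the rise was 4.74-fold (log2 fold change 2.25, SE 0.56, adjusted p = 0.0154), and without that replicate it was 3.06 on the log2 scale (adjusted p = 0.00105). WT tumour-bearing over control gave −1.20 (adjusted p = 0.292), and −2.02 without the same replicate (adjusted p = 0.0376).

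The other 4 glycogen genes did not pass. Gys2, the liver glycogen synthase, stood at 0.00, 0.42 and 0.42 (adjusted p = 1.0, 0.109 and 0.11), higher than the mean of either WT group in all 6 Stat3-deleted livers. Ppp1r3c, a further targeting subunit, stood at 0.42, 0.43 and 0.86 (smallest adjusted p = 0.0636). Pygl, liver glycogen phosphorylase, which breaks glycogen down, measured 482.6, 599.9 and 748.8 CPM in control, 231.1, 436.2 and 584.7 CPM in WT tumour-bearing and 377.8, 450.7 and 510.4 CPM in Stat3-deleted livers. It was below the control mean in 6 of 6 livers of each tumour-bearing group, at −0.51 (adjusted p = 0.12) and −0.45 (adjusted p = 0.124), and at 0.06 between the tumour-bearing groups (adjusted p = 0.885). Gbe1, the branching enzyme, kept within −0.07 to −0.01.

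Neither fructose gene passed. Khk, ketohexokinase, which phosphorylates fructose, measured 153.0, 185.2 and 232.3 CPM in control, 141.5, 154.9 and 227.1 CPM in WT tumour-bearing and 154.6, 174.7 and 210.1 CPM in Stat3-deleted livers, with log2 fold changes of −0.18, 0.10 and −0.08 (smallest adjusted p = 0.546). Tkfc, triokinase, which shares its end with Cyb561a3, stood at 0.06, 0.07 and 0.13.

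In the pentose phosphate pathway, which supplies NADPH and ribose, G6pdx (chromosome X, 74409483 to 74428880) passed. It encodes glucose-6-phosphate dehydrogenase, the entry enzyme, and its locus overlaps Ikbkg. G6pdx was near the lower limit of the table, at 0.835, 1.60 and 2.54 CPM in control, 2.01, 4.08 and 5.64 CPM in WT tumour-bearing and 2.88, 3.20 and 4.82 CPM in Stat3-deleted livers. WT tumour-bearing livers overlapped with control livers at the lower end, and Stat3-deleted livers lay above all control livers. The rise in WT tumour-bearing over control was 2.33-fold (log2 fold change 1.22, SE 0.31, adjusted p = 0.041, higher in 6 of 6), and Stat3-deleted over control gave 1.04 (SE 0.31, adjusted p = 0.0576).

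The G6pdx call was lost when any 1 of 10 libraries was left out (control replicates 1, 3, 4 and 6, WT tumour-bearing replicates 2 to 5, and Stat3-deleted replicates 1 and 2; adjusted p up to 0.105) and with library totals in place of TMM (1.03, adjusted p = 0.0801). Within the label-number runs it stood at 0.87 (adjusted p = 0.746) and 1.56 (adjusted p = 0.247). Between the tumour-bearing groups G6pdx stood at −0.18 (adjusted p = 0.793). Pgd, the next NADPH-making enzyme, stood at 0.44, −0.05 and 0.38 (smallest adjusted p = 0.259). Of the enzymes of the non-oxidative part, Taldo1, transaldolase, stood at 0.12, 0.06 and 0.17, and Tkt, transketolase, at −0.39, 0.22 and −0.17 (smallest adjusted p = 0.341).

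The genes varied more between WT tumour-bearing livers than within the other groups. The median coefficient of variation over the 34 genes was 17.1% in control, 30.3% in WT tumour-bearing and 17% in Stat3-deleted livers, and 25 of the 34 had their largest value in WT tumour-bearing livers. The livers did not differ in 1 direction. Replicate 4 was the highest of its group for 4 genes (Ldha, Pdha1, Pcx and Mdh2) and the lowest for 9, among them Pck1, G6pc, Slc2a2, Ugp2 and Ppp1r3g. Replicate 5 was the highest for 15 genes, among them Gckr, Gpi1, Pfkl, Pklr, Gys2, Pygl, Khk and G6pdx. Replicate 6 was the highest for Pck1, Fbp1, Slc37a4, Slc2a2 and 5 others, and the lowest for Pygl, Ppp1r3b and 5 others. TMM factors also ranged more widely in WT tumour-bearing livers (0.75 to 1.087) than in control (1.022 to 1.114) and Stat3-deleted livers (0.956 to 1.018). The spread over all genes is not given here, so whether it is particular to these 34 genes was not tested. It is given as a description.

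**Figure D4:**
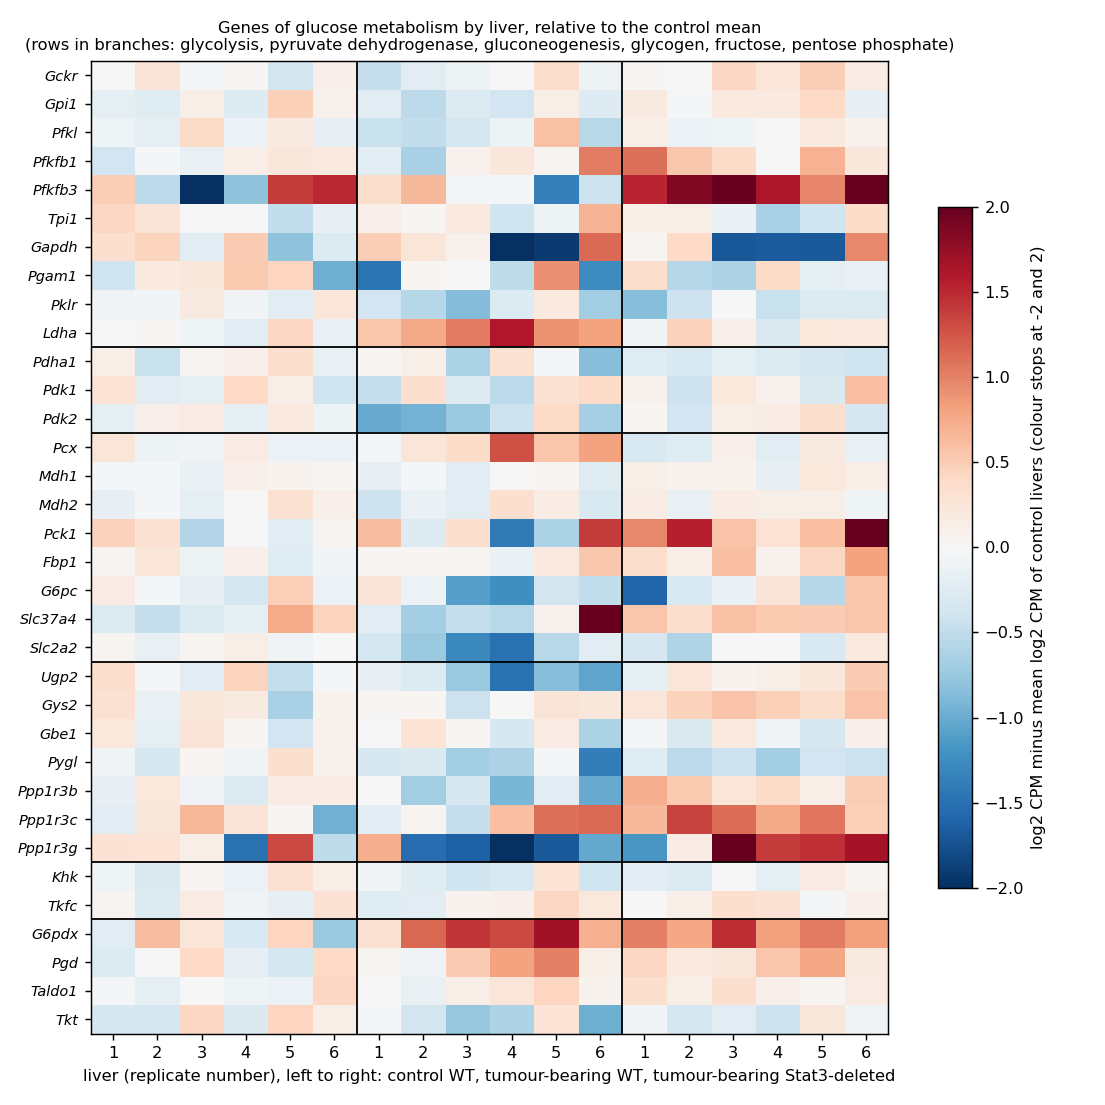
Log2 CPM of the 34 tested genes (rows, by branch) in each of the 18 livers (columns, by group and replicate number), minus the mean over control livers. Red is above and blue below the control mean, and the colour stops at −2 and 2. Ldha is red in all 6 WT tumour-bearing livers, and Pfkfb3 in all 6 Stat3-deleted livers.

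A further 79 enzymes and transporters of the same pathways were followed, of which 68 could be tested. In WT tumour-bearing over control livers edgeR called none of them, with a median of 0.00. At an unadjusted p under 0.05, 4 were higher and 5 lower, against 968 and 848 of all 11218 genes. In Stat3-deleted over WT tumour-bearing livers 3 rose and 2 fell, which is 7.35% of the 68 against 6.12% of all genes tested. In Stat3-deleted over control livers 1 fell, 1.47% of the 68 against 4.85% of all genes. The medians were 0.04 and 0.12. The 14 tested other glycogen genes, the 10 of pyruvate entry, the 5 of fructose and polyol metabolism and the 8 of the pentose phosphate pathway had no call in any comparison.

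The called genes are given as single genes, since their share is near the background. Slc16a1, the lactate and pyruvate transporter MCT1, measured 61.3, 64.5 and 72.1 CPM in control, 61.3, 70.3 and 83.8 CPM in WT tumour-bearing and 42.4, 45.5 and 66.6 CPM in Stat3-deleted livers. It fell in Stat3-deleted against WT tumour-bearing livers by 0.57 (log2, SE 0.12, adjusted p = 0.00649) and against control by 0.44 (SE 0.12, adjusted p = 0.0396). The call against control was lost when any 1 of 11 libraries was left out (adjusted p up to 0.0992), and with no filter on low counts (adjusted p = 0.0779).

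Between the tumour-bearing groups Aldoa, the muscle-type aldolase, was higher in Stat3-deleted livers, with no overlap (110.3 to 133.9 against 63.8 to 98.4 CPM), and the log2 fold change was 0.62 (SE 0.14, adjusted p = 0.00905). Aldoc, the brain-type aldolase, was lower (−0.73, SE 0.19, adjusted p = 0.0201). Got2, the mitochondrial aspartate aminotransferase, was higher (0.58, SE 0.17, adjusted p = 0.0398), a call lost without WT tumour-bearing replicate 1, 2, 3 or 4 or Stat3-deleted replicate 1, 3, 4 or 5 (adjusted p up to 0.0954). It was also lost with the 2 groups alone (adjusted p = 0.0576).

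Genes that control glucose metabolism were followed in a list of 23, chosen with earlier results of these data known. Of the 21 with enough counts, 1 fell in WT tumour-bearing over control livers, 5 rose and 3 fell in Stat3-deleted over WT tumour-bearing livers, and 3 rose and 3 fell in Stat3-deleted over control livers. These are 4.76%, 38.1% and 28.6% of the list, against 2.25%, 6.12% and 4.85% of all genes tested. As the list was so chosen, these shares are a description and no test. Foxo1, the insulin-restrained transcription factor that drives gluconeogenic genes, measured 38.1, 57.6 and 73.9 CPM in control, 36.6, 48.3 and 93.1 CPM in WT tumour-bearing and 94.96, 99.8 and 119.4 CPM in Stat3-deleted livers. Every Stat3-deleted liver lay above every WT liver, with log2 fold changes of 0.94 (SE 0.20, adjusted p = 0.0045) and 0.85 (SE 0.20, adjusted p = 0.0157) over WT tumour-bearing and control.

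Trib3, a pseudokinase that inhibits Akt, measured 5.15, 9.73 and 15.03 CPM in control, 4.94, 6.31 and 11.1 CPM in WT tumour-bearing and 16.2, 17.4 and 23.1 CPM in Stat3-deleted livers. Here too every Stat3-deleted liver lay above every WT liver (1.40, SE 0.23, adjusted p = 0.000577 over WT tumour-bearing, and 0.87, SE 0.23, adjusted p = 0.0307 over control). Nr0b2, the nuclear receptor SHP, a repressor, rose over the same groups by 1.18 (SE 0.23, adjusted p = 0.0029) and 0.94 (SE 0.23, adjusted p = 0.0235). The calls over control were lost without control replicate 1, 3 or 6 or Stat3-deleted replicate 2, 3 or 5 for Trib3 (adjusted p up to 0.0831), and without control replicate 1 or Stat3-deleted replicate 2 or 3 for Nr0b2 (adjusted p up to 0.0644). That of Trib3 was also lost with library totals (adjusted p = 0.0553). Onecut1, the liver transcription factor HNF6, fell in WT tumour-bearing over control livers by 2.16 (SE 0.56, adjusted p = 0.0417), and in Stat3-deleted over control livers by 3.88 (SE 0.62, adjusted p = 0.00115). The first Onecut1 call was lost when control replicate 5 or 6, WT tumour-bearing replicate 2, 3, 4 or 5 or Stat3-deleted replicate 2 or 3 was left out (adjusted p up to 0.167), and control livers ranged from 4.37 to 90.1 CPM. Within the label-number runs it stood at −0.44 (adjusted p = 0.91) and −2.86 (adjusted p = 0.0618), and it was also lost with the 2 groups alone (adjusted p = 0.0897), a block for the run (−1.72, adjusted p = 0.134) and the replicate number as a block (−1.64, adjusted p = 0.0741). Without control replicate 6 it stood at −1.45 (adjusted p = 0.167).

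The remaining called regulators were picked out after their values were seen. The coactivators Ppargc1a (1.498, SE 0.32, adjusted p = 0.00596) and Ppargc1b (0.97, SE 0.28, adjusted p = 0.0435) were higher in Stat3-deleted than in WT tumour-bearing livers. Irs2, the insulin receptor substrate, measured 10.4, 20.7 and 71.4 CPM in control, 6.38, 14.1 and 33.0 CPM in WT tumour-bearing and 3.76, 5.41 and 10.2 CPM in Stat3-deleted livers. It fell by 2.19 in Stat3-deleted against control livers, with no overlap (SE 0.44, adjusted p = 0.00763), and by 1.46 against WT tumour-bearing (SE 0.44, adjusted p = 0.0476). Nr3c1, the glucocorticoid receptor, fell by 0.62 against WT tumour-bearing (adjusted p = 0.019) and by 0.76 against control (adjusted p = 0.00914), and Gadd45a, at most 3.33 CPM, by 2.24 against WT tumour-bearing (adjusted p = 0.039). Against WT tumour-bearing, the calls were lost when any 1 of 11 libraries was left out for Irs2 (adjusted p up to 0.135) and Ppargc1b (up to 0.11), any 1 of 10 for Gadd45a (up to 0.0942), and WT tumour-bearing replicate 1 or 2 or Stat3-deleted replicate 3 or 5 for Nr3c1 (up to 0.0707). The Irs2 call against WT tumour-bearing was also lost with library totals and with the replicate number as a block (−1.39, adjusted p = 0.0643). With library totals Nr3c1 (adjusted p = 0.0877) and Gadd45a lost their calls against WT tumour-bearing too, and Gadd45a also with no filter. Ppargc1b lost its call with the 2 groups alone (adjusted p = 0.0679).

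**Figure D5:**
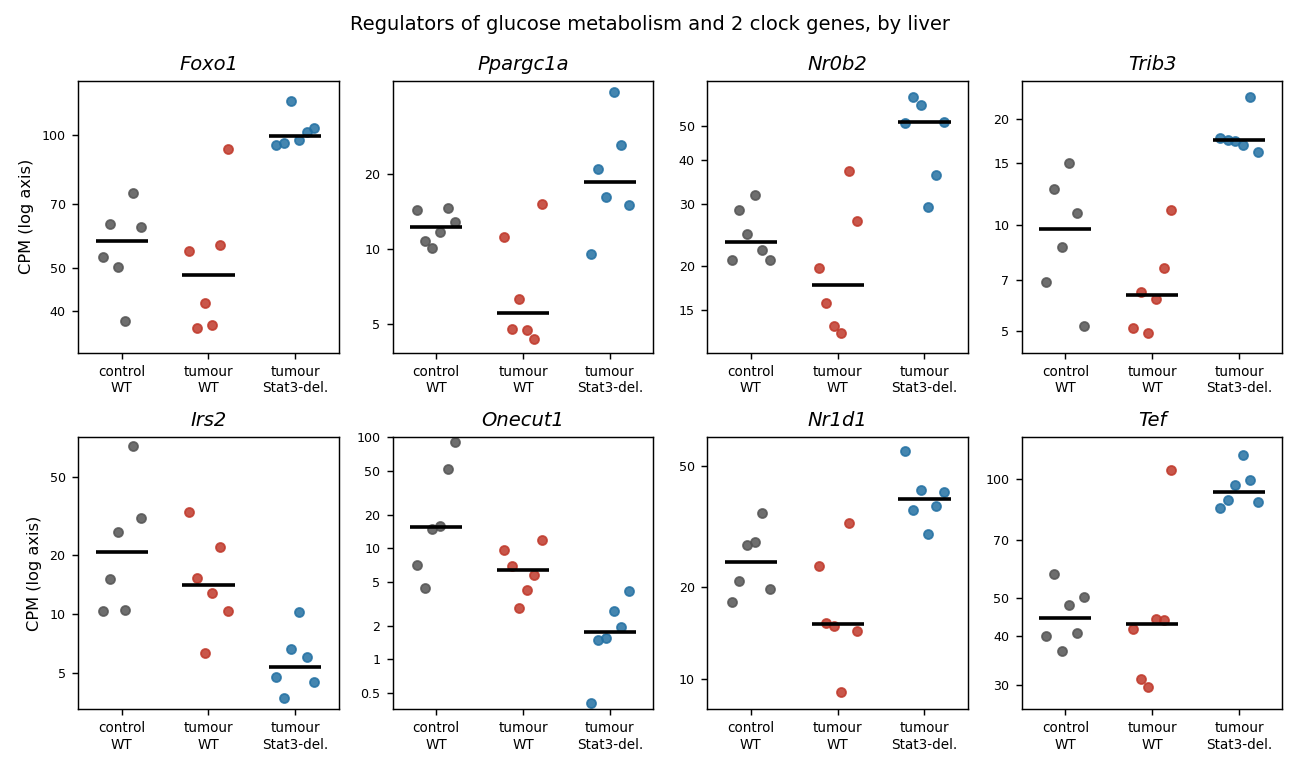
CPM on log axes, each with its own scale, of 6 regulators of glucose metabolism and the clock genes Nr1d1 and Tef: each point is a liver (6 per group, in order of replicate number), and each line is the group median. Foxo1 and Trib3 are higher in all 6 Stat3-deleted livers than in any WT liver, and Irs2 and Onecut1 are lower there than in any control liver.

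Many of these genes follow the hour of day and feeding, so clock genes were followed as well. Of 13 tested clock genes none passed in WT tumour-bearing over control livers. At an unadjusted p under 0.05 there was 1, against 1816 of all 11218 genes. In Stat3-deleted over WT tumour-bearing livers 3 rose, and in Stat3-deleted over control livers 2 rose and 2 fell. The calls in these last comparisons are 23.1% and 30.8% of the list, against 6.12% and 4.85% of all genes tested. This list too was chosen with earlier results known, so these shares are a description and no test. Nr1d1 and Nr1d2, the repressors REV-ERB alpha and beta, were higher in Stat3-deleted than in WT tumour-bearing livers by 1.14 (SE 0.24, adjusted p = 0.00509) and 0.77 (SE 0.15, adjusted p = 0.00216), and Tef by 0.95 (SE 0.23, adjusted p = 0.0134). Tef measured 36.6 to 57.5 CPM in control, 29.7 to 105.8 in WT tumour-bearing and 84.7 to 115.0 in Stat3-deleted livers. The WT tumour-bearing liver at 105.8 CPM was replicate 6, which also held the highest Pck1, Slc37a4 and Foxo1 of its group. Clock (−0.71, adjusted p = 0.018) and Arntl (−1.25, adjusted p = 0.0454) fell in Stat3-deleted over control livers, the latter a call lost when any 1 of 11 libraries was left out (adjusted p up to 0.105). The Arntl call was also lost with no filter on low counts (adjusted p = 0.0527). The rise of Nr1d2 over control (0.52, adjusted p = 0.0425) was lost when any 1 of 12 libraries was left out (adjusted p up to 0.109). It was also lost with library totals and with no filter (adjusted p up to 0.147). The part of the hour of collection or of feeding in the changes of the glucose genes was not tested.

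Glucose genes are zoned along the liver lobule, so markers of the zones were followed. Of 7 periportal markers 1 fell in WT tumour-bearing over control livers (Cyp2f2, −0.81, adjusted p = 0.0237) and 2 rose in Stat3-deleted over WT tumour-bearing livers (Cyp2f2, 0.73, adjusted p = 0.0201, and Hsd17b13, 0.86, adjusted p = 0.00696). Their sums overlapped between all groups, at 3325 to 4269, 2649 to 4652 and 3557 to 4644 CPM in control, WT tumour-bearing and Stat3-deleted livers. Of 8 pericentral markers Glul rose in the first comparison (0.65, adjusted p = 0.0368) and Cyp1a2 in the second (0.91, adjusted p = 0.0161), and neither passed in the other of these. Pericentral sums were 2924 to 4865, 3891 to 8579 and 5160 to 6702 CPM, with all Stat3-deleted livers above all control livers. In the first and the second comparison, 14.3% and 28.6% of periportal and 12.5% and 12.5% of pericentral markers passed. Over all genes tested, 2.25% and 6.12% passed. Immediate early genes, which respond to stress and handling, had 2 of 7 higher in WT tumour-bearing over control livers. They were Junb (1.76, adjusted p = 5.37e-05) and Fos (2.66, adjusted p = 0.0415), and the same 2 were lower in Stat3-deleted over WT tumour-bearing livers. In each comparison this is 28.6% of the list, against 2.25% and 6.12% of all genes tested. The Fos values rest on WT tumour-bearing replicate 6: without it they were 1.09 (adjusted p = 0.259) and −0.70 (adjusted p = 0.379), against −2.26 in the second comparison with all livers. The Fos calls were lost when any 1 of 9 and of 8 libraries, that one included, was left out, and with the replicate number as a block (1.89, adjusted p = 0.179, and −1.52, adjusted p = 0.206). With the 2 groups alone both Fos calls were lost as well, and with library totals that of the first comparison. The part of the zone markers and immediate early genes in the values of the glucose genes was not tested.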

How the data were processed

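RNA from 18 mouse livers was kept in TRIzol, isolated with RNeasy Mini columns and made into libraries with the QuantSeq 3′ FWD kit, per the labels' protocols. Alignment by the authors was to mm10 with STAR, per the submitters' processing notes. For the STAR version, counting tool, annotation and strand the entry is "not given in the sources used here", and reads of overlapping genes were not separated. The deposited values are raw counts, with 1 column per library and 24421 gene symbols; 27 symbols turned into date numbers (0.103 to 0.166% of counts) were left out.

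R 4.3.3 with edgeR 4.0.16 was used: TMM factors, filterByExpr (11218 genes kept), glmQLFit with 1 coefficient per group over all 18 libraries (15 residual degrees of freedom, common biological coefficient of variation 0.281) and two-sided glmQLFTest for 3 comparisons, with Benjamini-Hochberg adjustment over the 11218 genes and a threshold of 0.05. CPM use TMM-scaled library sizes. "Higher in 6 of 6" counts livers whose log2 CPM (prior count 2) exceeds the mean of the other group. The procedure was tested on simulated data.

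The members and all lists were chosen with earlier results of these data known. The share of a list that passed, set beside that of all genes, is therefore a description and no test. Values in all groups are given for each listed gene that passed in at least 1 comparison, for the gene with the smallest adjusted p of a branch where none passed, and for up to 4 genes of each further list (3 for clock and handling lists). Other genes were named after their values were seen. The values of 1 gene of the further lists are not reported here. RefSeq on GRCm38.p6 (assembly of mm10) gave positions and the windows before transcription starts, and near-identical 3′ ends were sought with BLAST in GENCODE transcripts. Python 3.11.15 with pandas 2.3.3 read the tables and matplotlib 3.10.9 drew the plots. Alternatives were DESeq2 1.42.0, library totals, RLE size factors, a filter of 1 CPM in 6 libraries or none, the 2 groups alone, a block for the replicate number, a block for the run of label numbers, fits within each run, and leaving out each library.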

Additional observations from a re-analysis of the deposited data

Results flagged for a closer look

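Among 102 sets of 6 livers (34 genes in 3 groups), 9 held a liver whose gap to the nearest other was wide for the range of its group, by Dixon's criterion. Chance marks about 1 in 20 such sets. In WT tumour-bearing livers Pfkl stood at 42.1 CPM in replicate 5 (next liver 26.1), Ldha at 1366 CPM in replicate 4 (next 921.9), Pdk2 at 165.9 CPM in replicate 5 (next 95.7), Slc37a4 at 268.6 CPM in replicate 6 (next 67.4) and Ppp1r3g at 7.27 CPM in replicate 1 (next 1.97). In control livers Ldha stood at 593.6 CPM in replicate 5 (next 456.7) and Taldo1 at 157.6 CPM in replicate 6 (next 118.9). In Stat3-deleted livers G6pdx stood at 4.82 CPM in replicate 3 (next 3.515), and Slc37a4 was lowest in replicate 2, at 79.8 CPM (next 90.2).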

How the results depend on the processing

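Ldha, Pfkfb3, Ugp2, Ppp1r3b and Ppp1r3g kept their calls between the tumour-bearing groups under all 7 alternative fits and without any 1 library; Pcx lost its call without WT tumour-bearing replicate 4. For WT tumour-bearing over control, the number of genes called higher was 1 with library totals, with no filter, with the 2 groups alone and with a block for the run of label numbers (G6pdx was lost), and 0 within either run. The number called lower was 2 with DESeq2, RLE factors, library totals and no filter (Ugp2 was added) and 0 with the 2 groups alone, the run block and the higher run (Slc2a2 was lost). For Stat3-deleted over control, the number called higher was 2 with DESeq2, 3 with the 2 groups alone (Ppp1r3c, Pck1 and G6pdx) and 2 with the replicate number as a block (Pck1 and G6pdx), and 1 gene (Pygl) was lower with the 2 groups alone. Leaving out each library gave 1 to 3 higher and 0 to 4 lower in the first comparison, 4 to 7 and 1 to 2 in the second, and 0 to 3 and 0 to 1 in the third. The G6pdx and Slc2a2 calls were lost without the libraries named with them. Without WT tumour-bearing replicate 1, 4 were lower in the first comparison (Ugp2, Ppp1r3b and Ppp1r3g added), and without replicate 5, 3 were (Pdk2 and Pygl added). Without replicate 6, 7 were higher in the second comparison (Pck1, Slc2a2 and Slc37a4 added) and 3 in the third (Ppp1r3c, Pck1 and G6pdx). Most same-numbered control and WT tumour-bearing livers carry adjoining label numbers (25459 and 25458 for replicate 1), and no label states a pairing. Their correlations ran from −0.096 to 0.309, and only replicate 5 matched its own number best. Between WT tumour-bearing and Stat3-deleted livers replicates 5 and 6 did so (0.19 and 0.212), and between control and Stat3-deleted livers none did. The main fit took the livers as unpaired. The replicate block gave 6 higher in the second comparison (Pdk2 and Pck1 added) and changed no other count beside that named. With library totals 39.4% in place of 78.2% of all called genes were higher in the first comparison, 61.1% in place of 47.2% in the second and 27.2% in place of 45.2% in the third. Over all genes, 252, 686 and 544 were called in the 3 comparisons. Without 1 library the first ran from 132 (WT tumour-bearing replicate 3) to 462 (replicate 1), the second from 469 (replicate 4) to 906 (replicate 6) and the third from 258 (Stat3-deleted replicate 5) to 783 (WT tumour-bearing replicate 6). DESeq2 called 462 in the first and 860 in the third, the 2 groups alone 128 and 894, the run block 126 in the first, and the lower and higher run 38 and 50. The filter of 1 CPM in 6 libraries kept more genes (11639) and left every count of calls among the 34 genes as it was. The cause was not tested. G6pdx, Pgam1 and Ppp1r3g rest on few counts per library, and a change there is less certain than in Ldha.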
